A study of Mus musculus with 4 samples.

Results

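The genes described here are 52 ligands and receptors of axon guidance, out of 43346 gene entries in the deposited tables. They were chosen by name: 8 ephrins, 9 EphA and 5 EphB receptors, 3 Slit ligands and 3 Robo family receptors. The others were 2 netrins with their 5 receptors (Dcc and Unc5a to Unc5d), 7 class 3 semaphorins, 2 neuropilins and 8 plexins. Of the 52 genes, 20 encode ligands and 32 encode receptors. The sequenced RNA came from WT (wild-type) mouse embryos at stage e11.5, with a single library of mixed cell types for the lateral nasal process, the medial nasal process, the maxillary process and the mandibular process. These paired outgrowths form, in that order, the sides of the nose, the centre of the nose and upper lip, the upper jaw, and the lower jaw with the chin. The strain and the number of embryos behind each library are not given for these libraries in the sources used here, and the medial nasal sample is so named in its title and tissue label but bears in brackets the abbreviation of the lateral nasal process. All libraries were made from total RNA after removal of ribosomal RNA with a kit that keeps strand.

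Axon guidance molecules are secreted or membrane-bound cues that growing axons and migrating cells read through receptors on their surface. Ephrins bind Eph receptor tyrosine kinases on neighbouring cells, where both partners can signal, while Slits act on Robo receptors, netrins on Dcc and Unc5 receptors, and class 3 semaphorins on complexes of neuropilins and plexins. In the embryonic face the same molecules are also known from neural crest migration, blood vessel growth, and the outgrowth and fusion of the processes, and trigeminal and olfactory axons grow through the same tissue.

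Groups of 4 values run in the order lateral nasal, medial nasal, maxillary, mandibular throughout. Library totals ranged from 13216161 to 16163874 estimated counts. The unit of level is CPM, the counts per 1000000 counts of a library, and a level of 5 CPM corresponded to 67.4 to 81.2 counts. A list of 10 facial mesenchyme markers summed to between 3175 and 3786 CPM in the 4 libraries, with none of the 10 at 0, and its leading gene Col3a1, a collagen of connective tissue, stood at 1369 to 1674 CPM. There was 1 library per process, so differences have no replicate check and carry no p-value. The 95% intervals printed beside ratios cover counting error only. In bulk tissue, fewer cells of a type and less RNA per cell cannot be told apart.

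All 52 genes reached 1 CPM in at least 1 library, and 39 reached 5 CPM in all 4. At the upper end, 13 genes stood at 100 CPM or more in every process. Between genes, levels were compared as TPM, which corrects for transcript length. On that scale the 52 genes summed to 771, 810, 805 and 814 TPM. Plxnb2, a plexin that binds class 4 semaphorins, was the most abundant receptor in every library, at 68.8 to 82.6 TPM. Epha4, which binds ephrins of both classes, stood at 54.5 to 70.4 TPM and Robo1, a Slit receptor, at 46.81 to 55.97 TPM, with Robo1 above Epha4 in the medial nasal library only. Ephb4, known from veins, stood at 40.2 to 51.5 TPM.

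**Figure D1:**
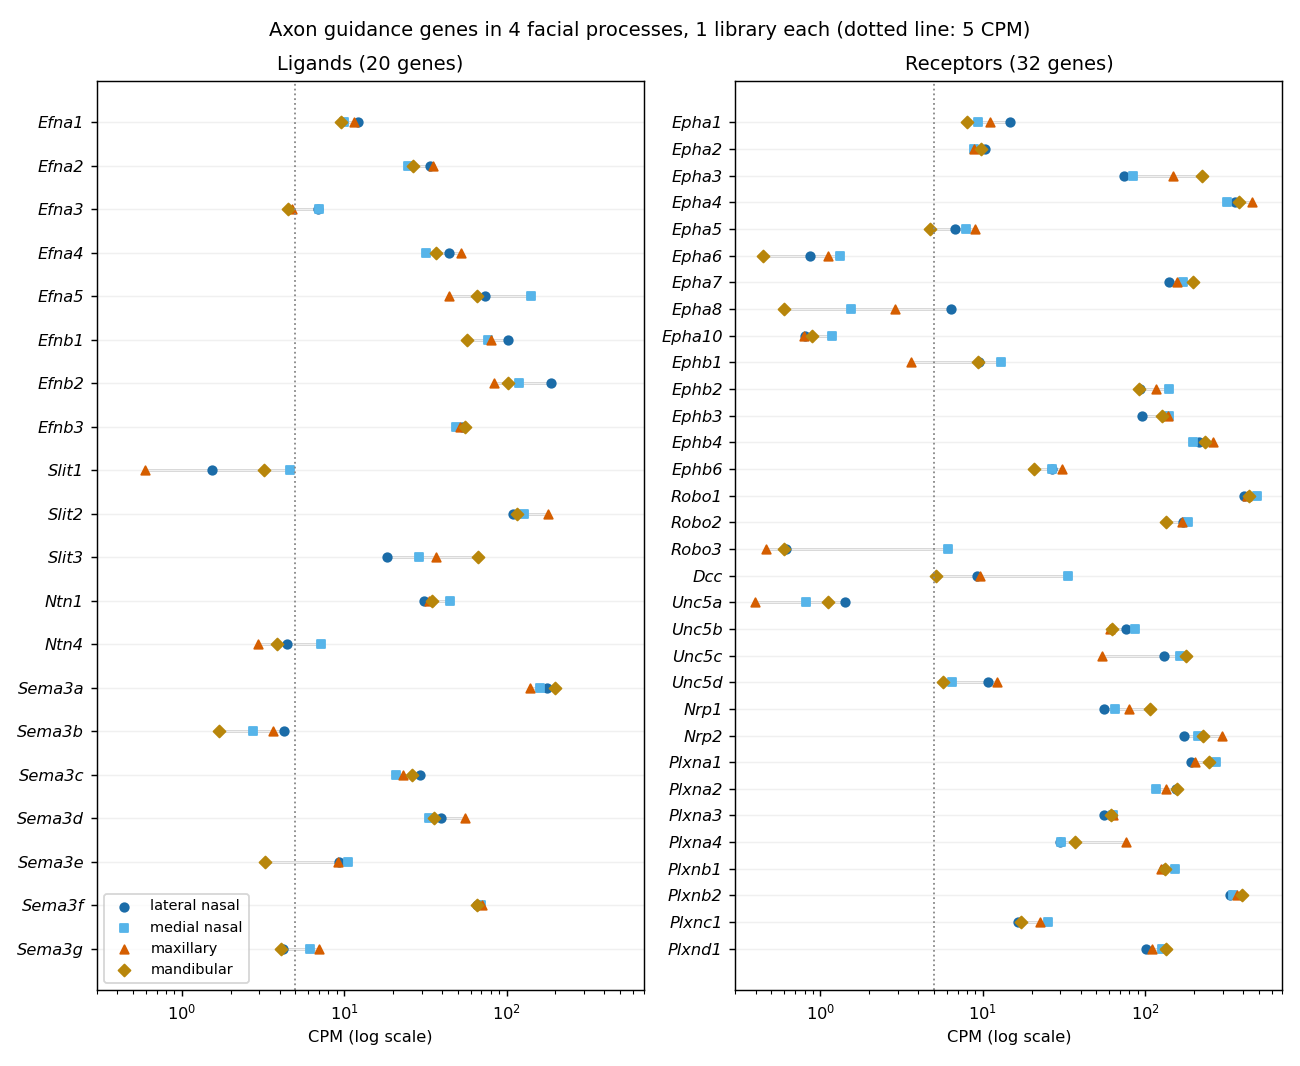
CPM on a log scale for the 20 ligands and 32 receptors, with 1 point per library, no error bars for want of replicates, and a dotted line at 5 CPM. Most genes have their 4 points close together, while Robo3, Epha8, Slit1 and Dcc spread most widely.

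Few of these genes were 2-fold higher or lower in 1 process than in every other. Higher in a process means 5 CPM or more in its library and a value at least 1 above every other library on the log2(CPM + 0.5) scale, which understates ratios of low genes. Lower is the mirror case, with the remaining libraries all at 5 CPM or more. By this rule 4 of 47 members were higher in 1 process, a share of 8.51% against 2.27% of all genes tested. They were the netrin receptor gene Dcc and the Robo family gene Robo3 in the medial nasal process, the Eph receptor gene Epha8 in the lateral nasal process and the plexin gene Plxna4 in the maxillary process. Lower in 1 process were 3 of 42 members, or 7.14%, against 0.668% of all genes tested: Ephb1 and Unc5c in the maxillary and Sema3e in the mandibular process. No member was higher in the mandibular process, where 0.846% of all genes tested were, and none was lower in the lateral or medial nasal process, where 0.132% and 0.141% were. These counts are a description of 4 libraries, and with so few members a single gene moves the share by over 2 percentage points. The nasal libraries were also compared as a pair with the pair from the first arch (the maxillary and mandibular processes). A pair was called higher when both its libraries reached 5 CPM and lay 2-fold above both of the other pair. No member met this rule. With the counts of each pair summed, the nasal to first arch ratio was 0.43 for Epha3 and 0.46 for Slit3. It was 2.31 for Epha8, 2.70 for Dcc and 5.97 for Robo3, in each case through 1 nasal library. The lateral nasal library held Dcc at 9.23 CPM against 9.68 CPM in the maxillary. It held Robo3 at 0.615 CPM against 0.594 CPM in the mandibular. Epha8 stood at 1.55 CPM in the medial nasal, below 2.90 CPM in the maxillary library. Of all genes tested, 0.962% were higher in the nasal pair and 0.279% in the first arch pair.

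The ratio of the highest to the lowest library had a median of 1.53 over the 47 members at 5 CPM, from 1.08 to 13.3, and a median of 1.27 over all genes at 5 CPM. It was under 1.5 in 22 members. A ratio of 2 or more on the log2(CPM + 0.5) scale was seen in 13 of 47 members, or 27.7%, against 9.69% of all genes tested. In the order of the 4 libraries, 87 of 156 steps between neighbouring libraries exceeded counting error. All 3 steps did so in 15 genes, among them Epha3, Slit3, Efnb2, Nrp1 and Nrp2, and none did in 9 genes, among them Efna1, Efnb3, Epha2, Sema3c and Sema3f. The highest library of the 52 members was the lateral nasal for 9 (17.3%), the medial nasal for 19 (36.5%), the maxillary for 14 (26.9%) and the mandibular for 10 (19.2%). Over all measured genes these shares were 22.9%, 25.5%, 24.8% and 26.9%. Both tallies take the top library even where the next is equal within counting error. Among the members this held for Ephb3 and Sema3e in the medial nasal and for Efna2 and Sema3f in the maxillary library, among others.

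Between single libraries, 1 to 6 members stood 2-fold apart in each of the 12 directions. The medial nasal stood above the maxillary library in 6 of 46 members (Efna5, Ephb1, Robo3, Ntn4, Dcc and Unc5c), against 3.96% of all genes tested, and below it in 1 (Plxna4), against 1.18%. The lateral nasal stood above the maxillary library in 4 of 45 (Efnb2, Epha8, Ephb1 and Unc5c), against 1.78%, and below it in 1 (Plxna4), against 1.11%. Against the mandibular library, the medial nasal was above in 4 of 46 (Efna5, Robo3, Dcc and Sema3e; 3.65% of all genes) and below in 2 (Epha3 and Slit3; 1.83%). Epha3 and Slit3 were also the members 2-fold lower in the lateral nasal than in the mandibular library, 2 of 44 against 2.46% of all genes, with Epha8 and Sema3e in the opposite direction against 2.51%. The maxillary stood above the mandibular library in 3 of 43 (Unc5d, Sema3e and Plxna4; 0.909% of all genes) and below it in 2 (Ephb1 and Unc5c; 1.84%). Between the nasal libraries, 2 of 47 members were higher in the medial (Robo3 and Dcc; 2.05% of all genes) and 1 in the lateral process (Epha8; 0.618%). These comparisons share libraries, so they are not separate observations.

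**Figure D2:**
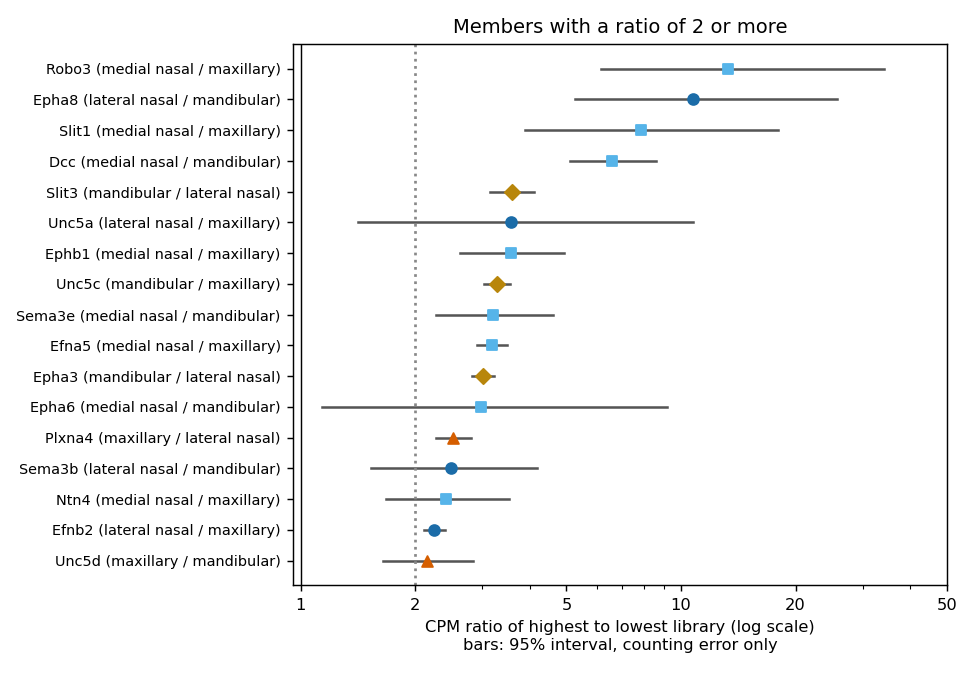
Ratio of the highest to the lowest library (CPM, log scale) for all members with a CPM ratio of 2 or more, with bars for the 95% interval of counting error and, besides the members at 5 CPM, Slit1, Unc5a, Epha6 and Sema3b, which stayed under that level. Robo3 at 13.3 and Epha8 at 10.8 lie furthest to the right, with 7 and 8 counts in their lowest libraries.

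Among the ephrins, ligands anchored in the membrane of the signalling cell, Efna5 and Efnb2 varied most, with their peaks in different nasal processes. Efna5, an A-class ephrin of axon mapping, stood at 73.8, 141, 44.2 and 65.8 CPM. The medial nasal library was 3.18-fold above the maxillary (2.91 to 3.48) and 1.91-fold above the lateral nasal (1.77 to 2.05), just short of the rule. Efnb2, the transmembrane ephrin known from arteries, stood at 188, 119.7, 83.4 and 102 CPM. It was therefore highest in the lateral nasal and lowest in the maxillary library, 2.25-fold apart (2.11 to 2.40). Efnb1, whose human counterpart is mutated in craniofrontonasal syndrome, had the same highest library, at 101, 76.5, 80.7 and 57.2 CPM. Its highest and lowest libraries differed 1.77-fold (1.62 to 1.93).

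The other ephrins varied less. Efna4 ranged from 31.9 CPM in the medial nasal to 52.4 CPM in the maxillary process, and Efna2 from 24.8 to 35.2 CPM in the same libraries. Efnb3 stayed between 48.9 and 55.2 CPM and Efna1 between 9.50 and 12.2 CPM, with no step beyond counting error in either gene. Efna3 lay near the minimum level, at 4.53 to 7.02 CPM. In 7 of the 8 ephrins the lateral nasal library exceeded the mean of the other 3, and the median difference was 0.24 on the log2 scale, while the mandibular library exceeded that mean in 1 of 8 with a median of -0.23. The summed ephrin counts, scaled to library size, were 1.44-fold higher in the lateral nasal than in the mandibular library (1.39 to 1.49). In CPM the 8 ephrins summed to 513, 459, 364 and 357. A list of 14 epithelial markers ran in the same order, with sums of 527, 468, 424 and 317 CPM and none at 0, and 10 of 14 exceeded the mean of the other 3 libraries in the lateral nasal library and 0 in the mandibular. The part of epithelium in the ephrin values was not tested. The ephrin with the highest TPM was Efnb2 in the lateral nasal, Efna5 in the medial nasal and Efna4 in the maxillary and mandibular processes.

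Among the EphA receptors, which mainly bind A-class ephrins, Epha3 was the most unequal of those above 5 CPM in every process. Its level was 74.0, 84.1, 148 and 223 CPM. Both first arch libraries thus lay above both nasal libraries, and the mandibular was 3.01-fold above the lateral nasal (2.82 to 3.22). Epha4 made up 43.8 to 53.1% of the summed EphA level in TPM, and in CPM it stood at 357, 317, 453 and 379, highest in the maxillary process. Epha7, another receptor of A-class ephrins, ranged from 141 CPM in the lateral nasal to 196 CPM in the mandibular process. The summed EphA counts were 1.34-fold higher in the mandibular than in the lateral nasal library (1.31 to 1.38), with Epha3 at 223 against 74.0 CPM. The median log2 difference of the EphA genes was -0.02 in the mandibular and -0.05 in the lateral nasal library. The A-class ephrins summed to 171, 214, 148 and 143 CPM, highest in the medial nasal library. The B-class ephrins summed to 342, 245, 216 and 214 CPM, highest in the lateral nasal library.

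Epha8, a receptor known from midbrain and retina, was low but unequal. The gene (chromosome 4, 136929419 to 136956816 of GRCm38) held 104, 21, 44 and 8 counts, or 6.40, 1.55, 2.90 and 0.594 CPM. The lateral nasal level was 2.21-fold above the maxillary (1.54 to 3.22), and 0.226% of all genes tested were called higher in the lateral nasal process. A list of 9 eye markers ran in the same order, with summed levels of 42.4, 7.76, 18.2 and 6.01 CPM. Its leading gene Cryaa, a lens crystallin, stood at 12.6 CPM in the lateral nasal and 5.01 CPM in the maxillary library, while Tyr, Tyrp1, Cryaa and Rax were at 0 in the medial nasal and mandibular libraries. In the lateral nasal library 6 of 7 measured eye markers exceeded the mean of the other 3. The part of eye tissue in the Epha8 values was not tested. The remaining EphA genes reached at most 14.7 CPM, with Epha1 at 8.02 to 14.7 CPM, Epha2 at 8.87 to 10.3 CPM, Epha5 at 4.75 to 8.96 CPM, and Epha6 and the kinase-deficient Epha10 at 1.33 CPM or less.

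The EphB receptors, which bind B-class ephrins, were led by Ephb4, which had the highest TPM of the family in every process and stood at 198 to 259.8 CPM, highest in the maxillary library. Ephb2 and Ephb3, receptors needed for closure of the palate, both had their highest value in the medial nasal process. Ephb2 stood at 93.1, 139.6, 117 and 91.2 CPM. Ephb3 stood at 95.8, 141, 138 and 126 CPM. The highest library stood 1.53-fold above the lowest for Ephb2 (1.42 to 1.65) and 1.47-fold for Ephb3 (1.37 to 1.57), and for Ephb3 the medial nasal and maxillary libraries were equal within counting error. Ephb6, which lacks kinase activity, ranged from 20.6 to 30.8 CPM.

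Ephb1 was the EphB receptor called in 1 process. The gene (chromosome 9, 101922128 to 102354693 of GRCm38) held 153, 175, 55 and 126 counts, or 9.42, 12.9, 3.62 and 9.35 CPM. The lateral nasal and mandibular libraries were equal within counting error, and the maxillary lay 2.58-fold below the next lowest (1.87 to 3.61). Of all genes tested, 0.0967% were called lower in the maxillary process. Gm26846 and Gm37945, on the opposite strand within the Ephb1 locus, had 12 and 8 counts in the maxillary library and 20 to 49 in the others, and the strand setting of the counting is not given in the sources used here.

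Of the Slits, secreted ligands of Robo receptors, Slit2 had the highest TPM in every process. Slit3 was the most unequal among those above 5 CPM. Slit3 stood at 18.5, 28.9, 36.8 and 66.4 CPM. The order was that of Epha3, and the mandibular level was 1.81-fold above the maxillary (1.62 to 2.01) and 3.60-fold above the lateral nasal (3.15 to 4.11). Slit2 stood at 109, 128, 181 and 116 CPM, with the maxillary library 1.41-fold above the next (1.328 to 1.499). Slit1 stayed under 5 CPM in every library, with 25, 63, 9 and 43 counts, and its medial nasal library stood 7.86-fold above the maxillary (3.89 to 18).

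A list of 11 myogenic markers also stood highest in the mandibular library, as Epha3 and Slit3 did. The markers summed to 149, 41.3, 275 and 795 CPM, with none at 0. In the lateral nasal library Pax7, which facial mesenchyme also expresses, made up 113 CPM of that sum. In the mandibular library 10 of 11 markers exceeded the mean of the other 3, and in the lateral nasal 1 did. The part of muscle cells in the Epha3 and Slit3 values was not tested.

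Robo1 and Robo2, the main Slit receptors, were high and even. Robo1 stood at 404, 490.5, 422 and 436 CPM. Robo2 ranged from 134 CPM in the mandibular to 184 CPM in the medial nasal process. Neither gene reached a 1.5-fold difference between its highest and lowest library.

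Robo3, a receptor of commissural axons, was near the limit of detection outside the medial nasal process. The gene (chromosome 9, 37415669 to 37433246 of GRCm38) held 83 counts in that library (6.13 CPM) and 10, 7 and 8 counts in the lateral nasal, maxillary and mandibular libraries (0.615, 0.461 and 0.594 CPM). The medial nasal level was 9.97-fold above the lateral nasal (5.16 to 21.6), and 1% of all genes tested were called higher in the medial nasal process. In the deposited TPM Robo3 stood at 0.12, 1.95, 0.33 and 0.16, so it was highest in the same library but under 5 TPM. The effective transcript length behind those TPM differed 3.98-fold between libraries.

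The summed netrins and their receptors differed most between the medial nasal and the maxillary library. Their summed counts, scaled to library size, were 1.97-fold higher in the medial nasal than in the maxillary library (1.88 to 2.07). Unc5c held a large part of this gap, at 164 against 54.0 CPM within family sums of 343 and 174 CPM. Only Unc5d went the other way, at 6.50 against 12.3 CPM. Ntn1, the secreted netrin that attracts commissural axons, stood at 31.0, 44.9, 33.5 and 34.9 CPM. Ntn4, a basement membrane netrin, stood at 4.43, 7.17, 2.96 and 3.86 CPM. Both ligands were therefore highest in the medial nasal library, with a lead of 1.29-fold for Ntn1 (1.14 to 1.46) and 1.62-fold for Ntn4 (1.18 to 2.23).

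Dcc, the receptor for attraction by netrin, had the same highest library with a larger gap. It held 150, 456, 147 and 69 counts, or 9.23, 33.7, 9.68 and 5.12 CPM. The medial nasal level was 3.48-fold above the maxillary (2.88 to 4.22) and 6.58-fold above the mandibular (5.10 to 8.60). Dcc was called higher in the medial nasal process on the CPM and on the TPM scale.

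Markers of neurons, of forebrain neuroepithelium and of the olfactory placode had their highest sums in the medial nasal library, as Dcc and Robo3 had their highest levels. The 15 neuron markers summed to 247, 445, 242 and 118 CPM. Their leading gene Tubb3, a neuronal tubulin, stood at 102, 170.0, 86.0 and 29.7 CPM. All 14 measured neuron markers exceeded the mean of the other 3 libraries in the medial nasal library, and 2 did in the mandibular. The 12 forebrain markers summed to 66.8, 105, 29.8 and 13.4 CPM. All 10 measured forebrain markers exceeded that mean in the medial nasal library and 0 in the mandibular. Nkx2-1 was at 0 in the lateral nasal, Rax in the medial nasal and Vax1 in the maxillary library, and Otx2, Rax and Vax1 were at 0 in the mandibular library. The 10 olfactory placode markers summed to 159, 218, 128 and 135 CPM, and all 9 measured exceeded the mean of the other 3 libraries in the medial nasal library. Gnrh1 was at 0 in the lateral nasal and maxillary libraries, and Sp8 and Fezf1 in the mandibular. The 7 Schwann cell precursor markers also had their highest sum there, at 59.2, 103, 69.4 and 58.7 CPM, with none at 0 and 3 of 5 measured above that mean. The part of neurons, brain, olfactory placode or glia in the Dcc and Robo3 values was not tested.

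**Figure D3:**
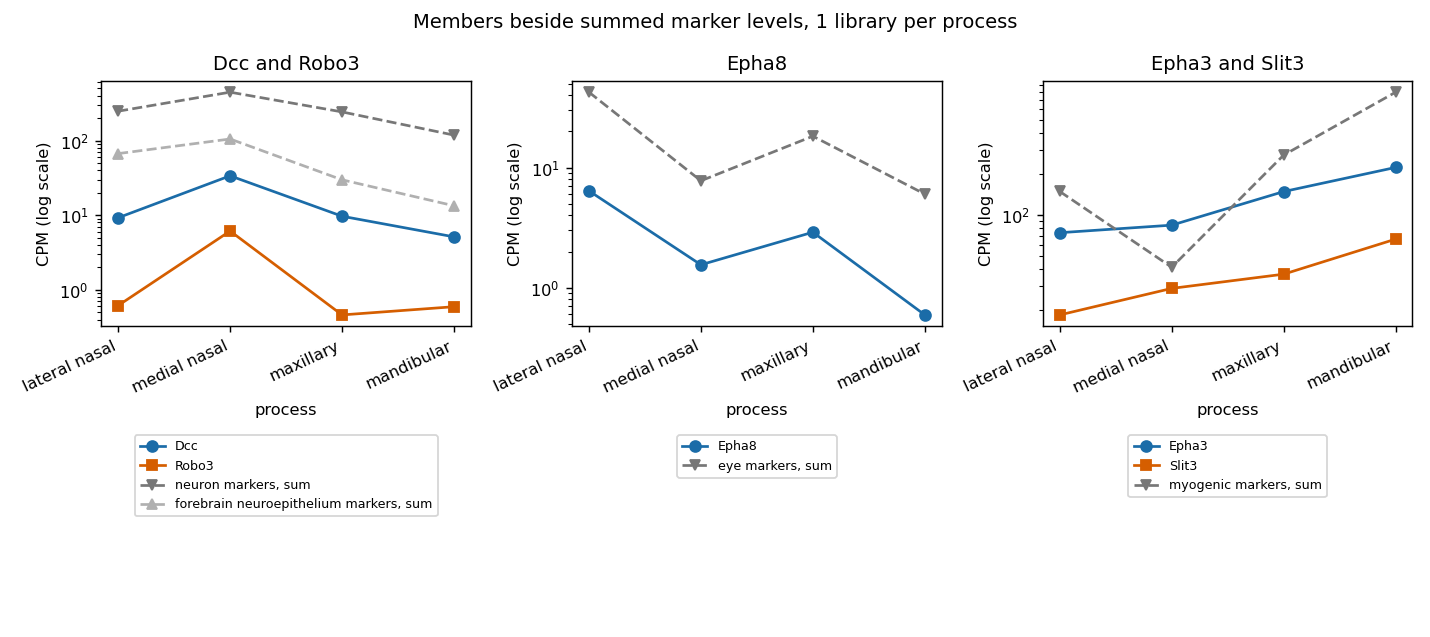
CPM on a log scale in the 4 libraries for Dcc and Robo3 beside neuron and forebrain markers (left), Epha8 beside eye markers (centre), and Epha3 and Slit3 beside myogenic markers (right), with 1 library per process and lines that only join values of the same item. Dcc and Robo3 peak in the medial nasal library as both marker sums do, at 445 CPM for neurons and 105 CPM for forebrain.

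Among the Unc5 receptors, which mediate repulsion by netrin, Unc5c was lower in the maxillary process than in the other 3. The gene (chromosome 3, 141465216 to 141834924 of GRCm38) stood at 130.2, 164, 54.0 and 177 CPM. With 820 counts in the maxillary library, it lay 2.41-fold below the next lowest there (2.22 to 2.62), so its low level was far outside counting error. Unc5b, known from the vascular endothelium, stood at 61.1 to 86.0 CPM and was the most abundant gene of this family by TPM in the maxillary process, where Unc5c led in the other 3. A list of 9 endothelial markers was even across the libraries, with sums of 287 to 329 CPM and none at 0. Unc5d stood at 10.8, 6.50, 12.3 and 5.72 CPM, and Unc5a stayed at 1.42 CPM or less.

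The class 3 semaphorins, secreted and mostly repulsive cues, were led in TPM by Sema3a in the lateral nasal and mandibular processes and by Sema3f in the other two. Sema3a stood at 178, 159.9, 139 and 199.9 CPM, highest in the mandibular and lowest in the maxillary library. Sema3f, which acts through neuropilin-2, was level at 65.5 to 70.5 CPM, with no step beyond counting error. Sema3d stood at 39.6, 33.3, 55.7 and 35.7 CPM. Its maxillary level was 1.41-fold above the next library (1.27 to 1.56).

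Sema3e, which binds plexin D1 without a neuropilin, was the semaphorin called in 1 process. The gene (chromosome 5, 14025276 to 14256689 of GRCm38) held 152, 142, 139 and 44 counts, or 9.35, 10.5, 9.15 and 3.27 CPM. The first 3 were equal within counting error and the mandibular lay 2.80-fold below the lowest of them (1.98 to 4.03), where 0.299% of all genes tested were called lower in the mandibular process. Its receptor gene Plxnd1 stood at 100.5, 127, 110.45 and 135 CPM, with the mandibular and medial nasal libraries equal within counting error. Sema3c, a ligand of cardiac neural crest, ranged from 21.0 to 29.2 CPM, while Sema3b stayed under 5 CPM and Sema3g ranged from 4.08 to 6.98 CPM.

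Neuropilins, the binding subunits for class 3 semaphorins, were both higher in the first arch libraries than in the nasal libraries. Nrp1, which binds Sema3a, stood at 55.8, 65.2, 79.2 and 107 CPM. Nrp2, which binds Sema3f, stood at 174, 211, 299 and 226 CPM. Neither gap reached the 2-fold rule: the highest and lowest libraries differed 1.91-fold for Nrp1 (1.76 to 2.08) and 1.72-fold for Nrp2 (1.64 to 1.81).

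Of the plexins, which carry the semaphorin signal into the cell, Plxna4 differed most. The gene (chromosome 6, 32144268 to 32588192 of GRCm38) held 488, 413, 1150 and 498 counts, or 30.0, 30.5, 75.7 and 37.0 CPM. Plxna4 was 2.05-fold above the mandibular library in the maxillary process (1.84 to 2.28), close to the threshold of the rule, and 0.202% of all genes tested were called higher there. The maxillary library was the highest for 14 of the 52 members, among them Plxna4, Nrp2, Slit2 and Sema3d. That share was 26.9%, against 24.8% of all measured genes. Plxna1 ranged from 191 CPM in the lateral nasal to 274 CPM in the medial nasal process, and Plxna2 from 116 CPM in the medial nasal to 157 CPM in the mandibular process. Plxna3, Plxnb1 and Plxnb2 were more even, at 55.6 to 63.4 CPM, 125 to 153 CPM and 333 to 394 CPM. Plxnc1, a receptor of Sema7a, stood at 16.6 to 25.1 CPM.

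**Figure D4:**
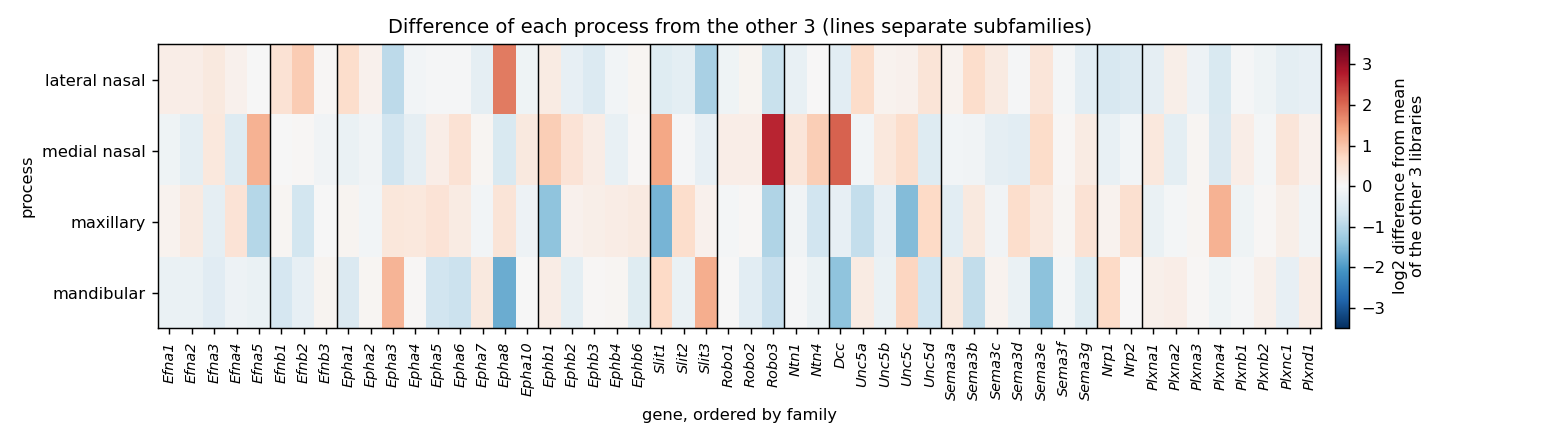
Log2(CPM + 0.5) difference of each library from the mean of the other 3 for all 52 genes, as colours, with lines between subfamilies. The most positive values are those of Robo3 at 2.65 and Dcc at 2.06 in the medial nasal library, and neighbouring genes of a subfamily often differ in sign.

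By family, the median log2 difference of a process from the mean of the other 3 stayed within 0.44 of 0 in every process. The medial nasal value of netrins and their receptors was 0.44, with 5 of 7 genes above that mean, and their maxillary value was -0.28, with 1 of 7 above. For Slit and Robo genes the lateral nasal value was -0.39, with 1 of 6 above. Neuropilins and plexins gave -0.31 in the lateral nasal (1 of 10 above) and 0.10 in the mandibular process (7 of 10 above), while EphA receptors gave 0.28 and class 3 semaphorins 0.35 in the maxillary process. The medians of the genes' counting bounds show the counting error of a typical gene and are not an interval of the family median. They ran from -0.77 to 0.02 for Slit and Robo genes in the lateral nasal process. In the maxillary process they ran from -0.16 to 0.48 for EphA receptors and from -0.03 to 0.68 for class 3 semaphorins. These 3 pairs of bounds include 0. For netrins and their receptors the bounds ran from 0.30 to 0.68 in the medial nasal process. For neuropilins and plexins they ran from -0.38 to -0.19 in the lateral nasal process. Over all 52 members the medians were -0.04, 0.05, 0.07 and -0.11, and over 16146 measured genes the lateral nasal median was 0.01 and the medial nasal -0.01.

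**Figure D5:**
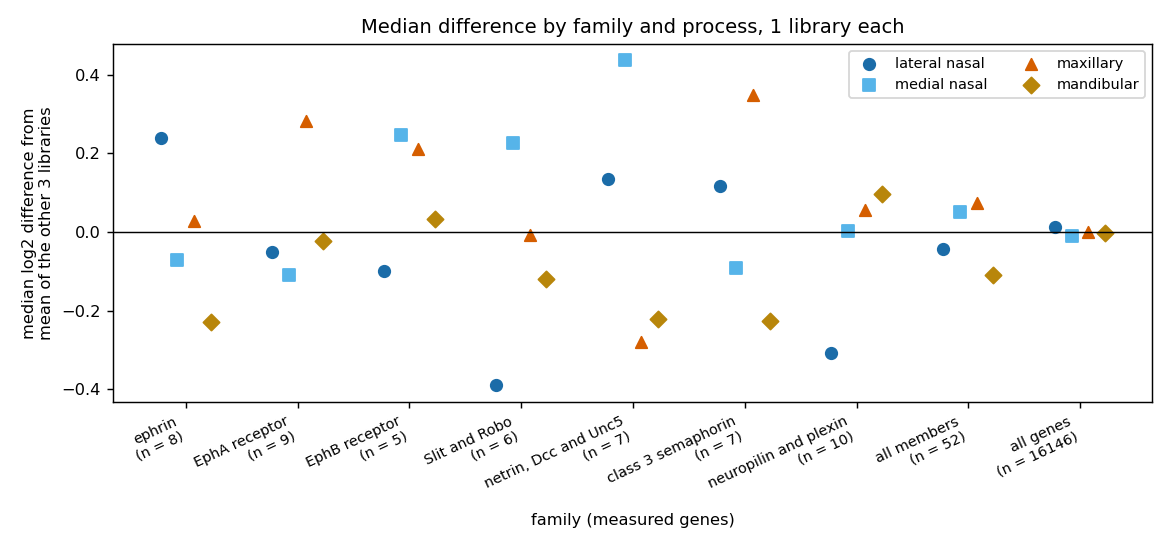
Median log2 difference of each process from the mean of the other 3 libraries, by family, with the number of measured genes in brackets. The values lie between -0.39, for Slit and Robo genes in the lateral nasal process, and 0.44, for netrins and their receptors in the medial nasal process.

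Guidance genes outside the 52 showed the medial nasal library highest in most of those called. Of 20 further ligands measured, 3 were higher in the medial nasal process, where 1% of all genes tested were, and none was lower in any process. The neuron, forebrain and olfactory placode markers peaked in the same library, as given above, and their part in these values was not tested. The 3 ligands were Flrt2, a membrane ligand of Unc5 receptors, at 745 CPM in the medial nasal against 206 to 341 CPM elsewhere, its relative Flrt1 at 12.9 against 3.04 to 5.72 CPM, and the membrane-anchored netrin Ntng1 at 15.5 against 5.99 to 7.42 CPM. Among 11 further receptors measured, the cell adhesion molecules Cntn2, Nrcam and Dscam were higher in the medial nasal process, at 44.0, 27.9 and 6.21 CPM, and Ret, a receptor of glial cell line-derived factors, was higher in the lateral nasal process at 9.60 CPM. Neo1, the Dcc relative, stayed between 229.9 and 252 CPM. Of 25 intracellular effectors measured, Dpysl5 and Srgap3 were higher in the medial nasal process, at 42.2 and 71.2 CPM. No further receptor or effector was lower in any process.

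Promoter sequence was matched for 43 of the 52 genes in RefSeq on GRCm38.p6, as the 250 bases before the RefSeq start nearest to the gene start. For Sema3a and Robo1 the window lay far inside the gene, at 13396534 on chromosome 5 and 72662899 on chromosome 16. These genes start at 13125414 and 72308306, and both windows are included in the values below. Those without an entry were Dcc, Efnb3, Ntn1, Plxna1, Plxna4, Sema3b, Sema3f, Slit1 and Unc5d. The ratio of observed to expected CG dinucleotides was 0.6 or more in 26 of the 43, or 60.5%, against 34.5% of the promoters of 27018 genes, and the median GC content was 65.6% against 52%. The letters TATAAA, on either strand, were found in 2 of the 43 promoters, those of Efnb2 and Slit2, and in 12.97% of all. To show the range within the called genes, the windows of Epha8 (higher in the lateral nasal process), Ephb1 (lower in the maxillary process) and Sema3e (lower in the mandibular process) are printed 5′ to 3′ with each CG in capitals. They lie at chr4:136956817-136957066 on the minus strand, chr9:102354694-102354943 on the minus strand and chr5:14025026-14025275 on the plus strand of GRCm38.p6.
Epha8: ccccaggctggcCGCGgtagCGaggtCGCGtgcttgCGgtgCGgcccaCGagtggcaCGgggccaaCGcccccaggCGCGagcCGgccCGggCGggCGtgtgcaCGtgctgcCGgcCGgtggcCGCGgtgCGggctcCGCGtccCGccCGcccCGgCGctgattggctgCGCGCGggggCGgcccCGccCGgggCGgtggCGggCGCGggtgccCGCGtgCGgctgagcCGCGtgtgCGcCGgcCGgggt
Ephb1: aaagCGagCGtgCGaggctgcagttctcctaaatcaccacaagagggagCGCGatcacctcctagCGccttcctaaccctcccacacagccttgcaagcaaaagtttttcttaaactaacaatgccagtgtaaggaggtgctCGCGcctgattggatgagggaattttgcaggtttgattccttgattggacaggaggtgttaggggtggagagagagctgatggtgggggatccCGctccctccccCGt
Sema3e: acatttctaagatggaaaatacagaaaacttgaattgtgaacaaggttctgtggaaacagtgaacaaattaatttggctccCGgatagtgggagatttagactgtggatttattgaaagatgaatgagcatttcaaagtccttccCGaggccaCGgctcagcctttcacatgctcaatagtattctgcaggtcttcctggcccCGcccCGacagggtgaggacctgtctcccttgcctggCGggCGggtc
These hold 46 CG dinucleotides for Epha8, 10 for Ephb1 and 7 for Sema3e, with a GC content of 84.0%, 54.0% and 48.0%. The counts describe the letters in these windows only.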

How the data were processed

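RNA-seq was analysed from 4 facial processes, 1 library each. According to the study's methods and the submitters' processing notes, the authors aligned the reads to mm10 with STAR and estimated gene levels with RSEM 1.4.1. The authors deposited expected counts, which are not normalized and divide reads that match several genes, together with TPM, which corrects for transcript length, and the posterior mean count. No sample columns of other series were present.

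Expected counts were rounded to whole numbers. Gene IDs were given symbols and coordinates from GENCODE M21, whose build GRCm38 is that of mm10. CPM was computed with TMM factors from edgeR 4.0.16, which ranged from 0.985 to 1.02. A pseudocount of 0.5 CPM was added before log2 values. A gene counted as measured at 1 CPM in at least 1 library. Ratios of 2 libraries carry an exact (conditional binomial) 95% interval. The limit that a count of 0 allows, 3 counts, corresponded to 0.185 to 0.223 CPM. For none of the 52 genes did the posterior mean and the expected count differ by 10% or more in any library.

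With 1 library per process no test was possible and rules of size were used. All 52 members could be named, and of the other guidance lists only genes called by those rules, except Neo1 and the marker genes. Neo1 was named after its values were seen. Of the marker lists, the gene with the highest level and those at 0 were named, and the values of some marker genes are not reported here. The members and lists were chosen with earlier results of these data known. The alternatives were DESeq2 1.42.0 size factors, total counts, the deposited TPM, other pseudocounts, minimum levels and thresholds, and the posterior mean count. The scripts were tested on simulated data. Promoter windows are those of RefSeq, and the 3 printed ones start directly before the GENCODE start of the gene.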

Additional observations from a re-analysis of the deposited data

How the results depend on the processing

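The counts of 4 members higher and 3 lower in 1 process, with the same genes, were also found with DESeq2 size factors, total counts, a pseudocount of 0.1, a minimum of 1 CPM or none, and the posterior mean count. With the deposited TPM, 1 member (Dcc) was higher and 1 (Unc5c) lower. TPM with no minimum level, added after the data were seen, gave 2 higher (Robo3 and Dcc) and 1 lower (Unc5c). A pseudocount of 2 left 2 higher (Robo3 and Dcc), a minimum of 20 CPM left 2 higher (Dcc and Plxna4) and 1 lower (Unc5c), and a 3-fold threshold left 2 higher (Robo3 and Dcc) and 0 lower. Leaving out each library in turn, also added after the data were seen, gave 2 to 5 higher and 1 to 3 lower. Without the medial nasal library 2 members were higher (Epha8 and Plxna4), and without the maxillary library 5 were higher (Epha3, Epha8, Slit3, Robo3 and Dcc) and 1 lower (Sema3e). No member was higher in both nasal or both first arch libraries under the settings run.

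Of 168 family medians recomputed, 164 stayed within the medians of their genes' counting bounds. Of 51 ratios, 50 stayed within their counting intervals. The medians that moved more were those of Slit and Robo genes, at 0.17 in the medial nasal process with TPM and -0.24 in the mandibular process with a minimum of 5 CPM, and of class 3 semaphorins in the lateral nasal process, at 0.29 with TPM and 0.04 with a minimum of 5 CPM. The ratio that moved was that of Robo3, whose ratio of the medial nasal to the maxillary library was 5.91 with TPM against 13.3 with CPM, where its effective length differed between libraries. No ratio reversed its direction. For family medians a reversal could not be recorded, since none was large enough to count as called. No paired analysis was possible because each process has 1 library and the labels carry no replicate numbers. Genes under 5 CPM rest on fewer than 67.4 to 81.2 counts, so that of the called members Epha8 and Robo3, with 8 and 7 counts in their lowest libraries, have the least certain ratios.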

Other observations

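Several of the 52 genes are neighbours in the genome, and neighbours did not always share a pattern. On chromosome 3 of GRCm38, Efna1, Efna3 and Efna4 lie in a row, with 32757 bases between Efna1 and Efna3 and 10425 bases between Efna3 and Efna4. The highest library was the maxillary for Efna4 (52.4 CPM), the medial nasal for Efna3 (7.02 CPM) and the lateral nasal for Efna1 (12.2 CPM), though for Efna1 and Efna3 the top libraries were equal within counting error. On chromosome 5, Sema3d, Sema3a and Sema3e follow each other on the same strand with gaps of 536466 and 422711 bases. Their highest libraries were the maxillary for Sema3d, the mandibular for Sema3a and the medial nasal for Sema3e. For Sema3e the medial nasal, lateral nasal and maxillary libraries were equal within counting error. In the mandibular library Sema3a was at its highest and Sema3e at its lowest. Epha8 lies 93431 bases from Ephb2 on chromosome 4, with C1qa, C1qb and C1qc between them, and Ephb2 stood at 91.2 to 139.6 CPM where Epha8 stayed at 6.40 CPM or less. Robo1 and Robo2, 845744 bases apart on chromosome 16, were both highest in the medial nasal process.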
